A study of Homo sapiens with 4 samples.

Results

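The genes described here make, break down and respond to retinoic acid, and were measured by RNA-seq in an enzalutamide-resistant prostate cancer subline and its parent. They are 10 genes chosen by name for their place in the pathway, of 20332 genes in the deposited table, and all 10 were present in it. LNCaP is a human prostate cancer cell line that grows in response to androgens, and LN-35 is the subline that the study obtained from it by stepwise selection in enzalutamide, a blocker of the androgen receptor. Each line was represented by 2 libraries of total RNA. The labels give LNCaP as the WT genotype with no treatment, and LN-35 as resistance cells treated with enzalutamide. A single serum-containing medium is named for both, while the methods of the study describe growth of the resistant cells in charcoal-stripped serum, which removes lipophilic compounds. Resistance, drug and medium therefore cannot be told apart in this comparison. LN-35 is 1 subline, and the sources do not say whether it descends from 1 clone.

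Retinoic acid is made from vitamin A in consecutive oxidation steps. Retinol dehydrogenases such as RDH10 turn retinol into retinal, reductases such as DHRS3 and RDH11 can turn retinal back into retinol, and the ALDH1A enzymes oxidize retinal irreversibly to retinoic acid. CYP26 enzymes hydroxylate retinoic acid and so remove it. CRABP2 carries retinoic acid to nuclear receptors of the RAR family, which pair with RXR receptors on DNA, and *RARB*, *CYP26A1*, *DHRS3* and *CRABP2* are genes that retinoic acid itself induces in many cell types. In prostate epithelial cells, retinoids are known for their part in gland development and differentiation, and *RDH11* and *ALDH1A3* are known to be induced by androgens.

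Library totals ranged from 12225173 to 15333722 counts, and levels are given as CPM (counts per 1000000 counts of a library) after TMM scaling, as mean ± SD with n = 2 per line. The lines were compared by quasi-likelihood tests in edgeR, and an adjusted p (Benjamini-Hochberg) of 0.05 was the limit for a call. A total of 13744 genes had enough counts to be tested, and 71.8% of them were called, 36.4% as higher and 35.5% as lower in LN-35. Against that background, a call on a single gene separates it little from the rest of the transcriptome, and the size of the change carries more. Of the markers of luminal prostate cells and LNCaP, 14 of 15 had counts in LN-35 (*TRPM8* had none), with 9 lower and 5 higher, and their summed level was 5577 to 5712 CPM in the parent and 7163 to 7164 CPM in the subline. Of 13 neuroendocrine markers 8 were tested, of which 7 were higher and 1 lower. Their sums were 97.9 to 103 CPM in the parent and 595 to 614 CPM in the subline. In the subline, *INSM1*, *NCAM1*, *DDC* and *NEUROD1* were among those at 0 counts. Markers of other prostate cancer lines summed to 146 and 249 to 261 CPM. Of these 11 markers 7 were tested, of which 6 were higher and 1 lower. Fibroblast markers summed to 37.1 to 45.5 and 45.0 to 47.3 CPM. Only 4 of these 10 markers were tested, of which 3 were higher and 1 not called. *DCN* and *PDGFRA* had counts only in LN-35 and *THY1* only in LNCaP, while *POSTN* and *FAP* were at 0 counts in both lines. Leukocyte markers summed to 136 to 142 and 6.66 to 8.05 CPM, and of the 10 only *LCP1* was tested and was lower. *PTPRC* had 0 and 0 counts in the parent and 5 and 1 in the subline, and *CD3E* had none. Endothelial markers summed to 5.65 to 6.74 CPM and to at most 0.805 CPM. Of the 8 only *VWF* was tested and was lower, and *CDH5* and *KDR* had no counts. The part of these differences in the results below was not tested.

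The retinoid genes changed in both directions. *ALDH1A3*, the only retinal dehydrogenase gene of the ALDH1A family with counts in LNCaP, was 59.1-fold lower in LN-35, and *RDH11* and *RDH10* were 3.90-fold and 1.80-fold lower. In contrast, *CRABP2* was 22.5-fold higher, the receptor gene *RARB* 4.41-fold higher and *DHRS3* 1.64-fold higher. *CYP26A1* was at trace level in both lines. Of the 10 genes, 6 passed the filter on low counts, and 3 were called higher and 3 lower. Over all tested genes, 36.4% were higher and 35.5% lower, so these counts alone do not set the members apart.

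**Figure D1:**
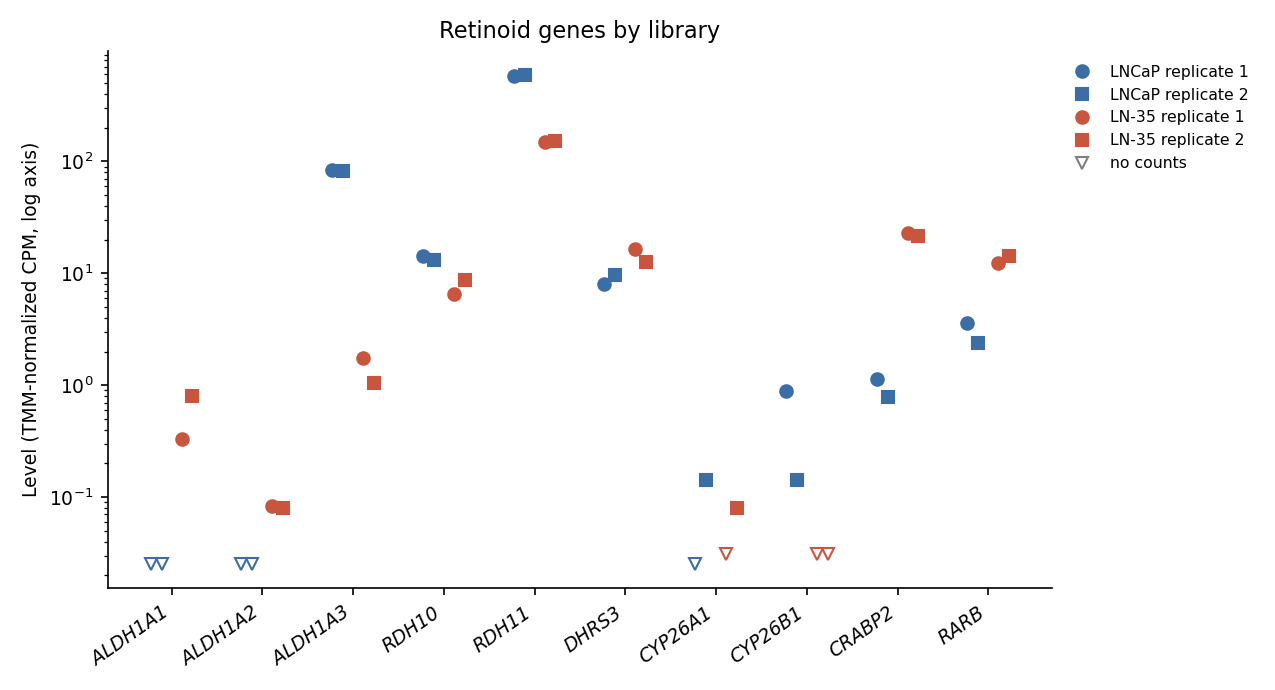
Level of each of the 10 retinoid genes in every library, in TMM-normalized CPM on a log axis, with LNCaP in blue and LN-35 in red, circles for replicate 1 and squares for replicate 2. Open triangles at the bottom mark libraries without counts, for which the height has no meaning. *ALDH1A3* is near 83 CPM in both LNCaP libraries and below 2 CPM in both LN-35 libraries, while *CRABP2* and *RARB* show the opposite order.

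Among the retinal dehydrogenases, *ALDH1A3* (ENSG00000184254, chromosome 15, 100877714 to 100916626, GRCh38) had 1311 and 1148 counts in parental cells, compared to 21 and 13 in LN-35 cells. Both LNCaP libraries were far above both LN-35 libraries, and the groups did not overlap, which also held for 85.5% of all genes tested. The level fell from 82.8 ± 0.642 to 1.40 ± 0.497 CPM, a log2 fold change of -5.88 (SE 0.17, 95% interval -6.23 to -5.54, edgeR adjusted p = 1.96e-19). Of the 13744 tested genes, 220 had a log2 fold change at or below this one. In bulk RNA, fewer expressing cells and less RNA per cell cannot be told apart. An antisense RNA gene overlaps 27.5% of the exon bases of *ALDH1A3* in GENCODE. No use of strand was stated, so the few reads left in LN-35 could not be assigned to a strand.

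*ALDH1A1* (ENSG00000165092, chromosome 9, 72900662 to 73080442), the retinal dehydrogenase often used as a stem-cell marker, had 0 and 0 counts in LNCaP, compared to 4 and 10 in LN-35. This was at least 5.67-fold higher against a floor of 3 counts over the 2 LNCaP libraries, but the level in LN-35 was only 0.569 ± 0.333 CPM and the gene stayed below the filter. Without the filter, its edgeR adjusted p was 0.0103. That fit gave *ALDH1A3* an edgeR adjusted p of 2.09e-266, against 1.96e-19 in the main fit. Its p-values are therefore not comparable with the main ones, and 0.0103 was not taken as a call. *ALDH1A2* (ENSG00000128918, chromosome 15, 57953424 to 58497866), the main retinoic acid source of the early embryo, had 0 and 0 counts in LNCaP, compared to 1 and 1 in LN-35, so that no difference was detectable at this depth. Of all counts on the ALDH1A genes, *ALDH1A3* took 100% in LNCaP replicates 1 and 2 (exact 95% Clopper-Pearson lower limits 99.7% and 99.7%). The share was 80.8% in LN-35 replicate 1 (60.6% to 93.4%, of 26 counts) and 54.2% in LN-35 replicate 2 (32.8% to 74.4%, of 24 counts). Compared per kilobase of exon, the shares in LN-35 were 70.5% and 38.3%, so that *ALDH1A3* was the larger part in replicate 1 but not in replicate 2. Per kilobase of exon, the 3 genes summed to 14.4 and 14.3 CPM in the parent but 0.430 and 0.473 CPM in the subline. The gain in *ALDH1A1* was thus small beside the loss of *ALDH1A3*.

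*RDH11* (ENSG00000072042, chromosome 14, 67676801 to 67695814), a microsomal retinal reductase abundant in prostate epithelium, was the most abundant of the 10 genes in both lines. It had 9216 and 8237 counts in LNCaP, compared to 1775 and 1910 in LN-35. The level fell from 588 ± 3.94 to 151 ± 4.14 CPM (log2 fold change -1.96, SE 0.07, edgeR adjusted p = 2.34e-17), with a log2 ratio of -1.98 within repeat 1 and of -1.94 within repeat 2. This was the most evenly repeated change of the group. *RDH10* (ENSG00000121039, chromosome 8, 73294612 to 73325281), the retinol dehydrogenase on which embryonic retinoic acid depends, had 224 and 185 counts in LNCaP, compared to 79 and 108 in LN-35. The groups stood apart by less, and the level fell from 13.7 ± 0.675 to 7.64 ± 1.49 CPM (log2 fold change -0.85, SE 0.19, 95% interval -1.24 to -0.45, edgeR adjusted p = 0.000354).

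*DHRS3* (ENSG00000162496, chromosome 1, 12567910 to 12617731), which lowers retinoic acid formation by reducing retinal, went the other way. Its counts were 126 and 135 in LNCaP and 197 and 156 in LN-35, or 8.84 ± 1.19 and 14.5 ± 2.73 CPM. The higher value came mostly from LN-35 replicate 1 at 16.4 CPM, whereas replicate 2 stood at 12.6 CPM, not far above the 9.68 CPM of LNCaP replicate 2. The log2 fold change was 0.71 (SE 0.19, 95% interval 0.33 to 1.10, edgeR adjusted p = 0.0016), and 0.52 without LN-35 replicate 1, where the call was lost (adjusted p = 0.0553). Of the 6 tested genes this was the smallest change.

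The retinoic acid hydroxylases were barely expressed. *CYP26A1* (ENSG00000095596, chromosome 10, 93073475 to 93077890), usually the gene most responsive to retinoic acid, had 0 and 2 counts in LNCaP, compared to 0 and 1 in LN-35. Both lines were at or under the floor of 3 counts (0.101 and 0.123 CPM, respectively), and the libraries overlapped. In GENCODE, a processed transcript on the same strand (AL358613.3) shares 25.2% of the exon bases of *CYP26A1*. It was absent from the deposited counts, and how reads in the shared part were assigned is not known. *CYP26B1* (ENSG00000003137, chromosome 2, 72129238 to 72148038), a related hydroxylase, had 14 and 2 counts in LNCaP, compared to 0 and 0 in LN-35. It was at least 4.39-fold lower in LN-35, yet the LNCaP libraries differed from each other by more than the second of them differed from LN-35. The gene stayed below the filter. Without the filter its edgeR adjusted p was 0.0156, which, as for *ALDH1A1*, is not comparable with the main fit and was not taken as a call.

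*CRABP2* (ENSG00000143320, chromosome 1, 156699606 to 156705816), the carrier that delivers retinoic acid to its receptors, showed the largest rise of the tested members. Its counts were 18 and 11 in LNCaP and 274 and 267 in LN-35. The level rose from 0.965 ± 0.250 to 22.2 ± 0.945 CPM (log2 fold change 4.49, SE 0.24, 95% interval 3.99 to 4.99, edgeR adjusted p = 4.88e-14), which placed the gene 716th from the top of the 13744 tested genes. *RARB* (ENSG00000077092, chromosome 3, 25174332 to 25597932), which encodes the retinoic acid receptor beta, had 57 and 33 counts in LNCaP, compared to 148 and 178 in LN-35. It rose from 2.99 ± 0.885 to 13.3 ± 1.41 CPM (log2 fold change 2.14, SE 0.24, 95% interval 1.65 to 2.63, edgeR adjusted p = 2.40e-08). The LNCaP libraries differed from each other in *RARB*, and the log2 ratios within repeats 1 and 2 were accordingly 1.77 and 2.60.

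**Figure D2:**
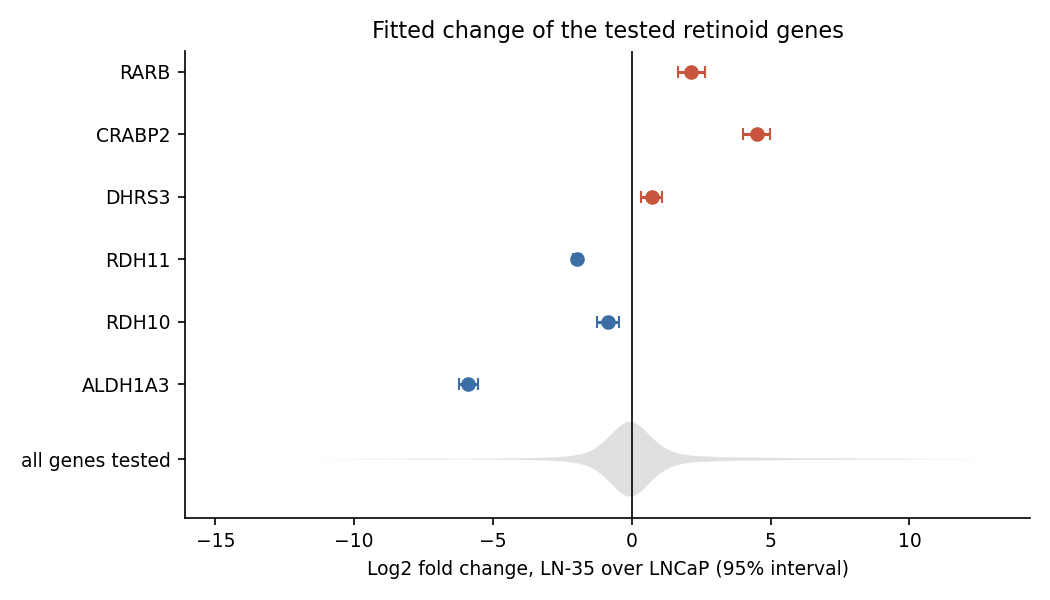
Fitted log2 fold change of the 6 tested retinoid genes, LN-35 over LNCaP, with 95% intervals, red for higher and blue for lower in LN-35. The grey shape is the distribution of the log2 fold changes of all 13744 tested genes. *ALDH1A3* at -5.88 and *CRABP2* at 4.49 lie in the tails of that distribution, while *DHRS3* at 0.71 and *RDH10* at -0.85 lie within its bulk.

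The order of the genes by level per kilobase of exon differed between the lines. In LNCaP, *RDH11* led with 107 CPM per kilobase, followed by *ALDH1A3* with 14.3. Next came *DHRS3* (2.91) and *RDH10* (2.58), whose libraries overlapped, then *CRABP2* (0.878) and *RARB* (0.809), which overlapped as well. *CYP26B1* (0.103) and *CYP26A1* (0.0241) followed, whose libraries also overlapped, and the other ALDH1A genes were at 0. In LN-35, *RDH11* led again with 27.3 CPM per kilobase, but *CRABP2* was the next with 20.1. *DHRS3* (4.77), *RARB* (3.60) and *RDH10* (1.44) followed without overlap between neighbors. *ALDH1A3* (0.242) and *ALDH1A1* (0.200) overlapped, and the remaining genes were below 0.02. *ALDH1A3* thus moved from the second place to a level not separable from that of *ALDH1A1*.

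Retinoic acid receptors bind DNA at direct repeats of a short hexamer, and the classical site has a spacing of 5 bases (DR5). The promoters of *RARB* and *CYP26A1* are shown because they carry this site and the genes behaved differently in these cells. Windows of 250 bases before to 50 bases after each RefSeq transcript start (GRCh38) were searched on both strands for AGGTCA or its variants, which were GGGTCA as well as AGTTCA and also GGTTCA, any of them followed by any of them in the same orientation at that spacing. Windows were given for 9 of the 10 genes (16 windows in all), and sites were found in 2 genes. The site occurred in 31 of all 35116 windows, or 0.0883%. The sequences run 5′ to 3′ on the plus strand, which is the strand of both genes, and capitals mark the hexamers, which in *CYP26A1* lie on the opposite strand.
RARB, chr3:25428204-25428232: gggtagGGTTCAccgaaAGTTCActcgca
CYP26A1, chr10:93073797-93073825: taaagaTGAACTttgggTGAACTaattgt

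The *RARB* site lay 53 to 37 bases before a transcript start at position 25428263, in an intron of 1 longer transcript. The *CYP26A1* site lay 90 to 74 bases before a start at 93073893, and in a noncoding part of an exon of 1 transcript that starts farther upstream. *RARB* had at least 148 counts in each LN-35 library, whereas *CYP26A1* had at most 1. These counts cover whole genes, with 8 and 6 annotated transcripts, and do not show which transcript start was used. A match describes only the letters in the window. Of the 29 genes with such a site in any window, 11 were tested, of which 6, including *RARB*, were higher and 2 lower. The shares over all tested genes were 36.4% and 35.5%.

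The other genes of the pathway were described by role, leaving out the 10 members. Across all lists, 126 of 127 listed genes were in the table, 79 were tested, and 40 were higher, 31 lower and 8 not called. The called genes were 89.9% of those tested, beside 71.8% of all tested genes. The median log2 fold change was 0.36, against -0.01 over all tested genes. A gene silent in either line could pass the filter only by its level in the other, in these lists as among all genes. The reason for the difference in shares was not tested.

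**Figure D3:**
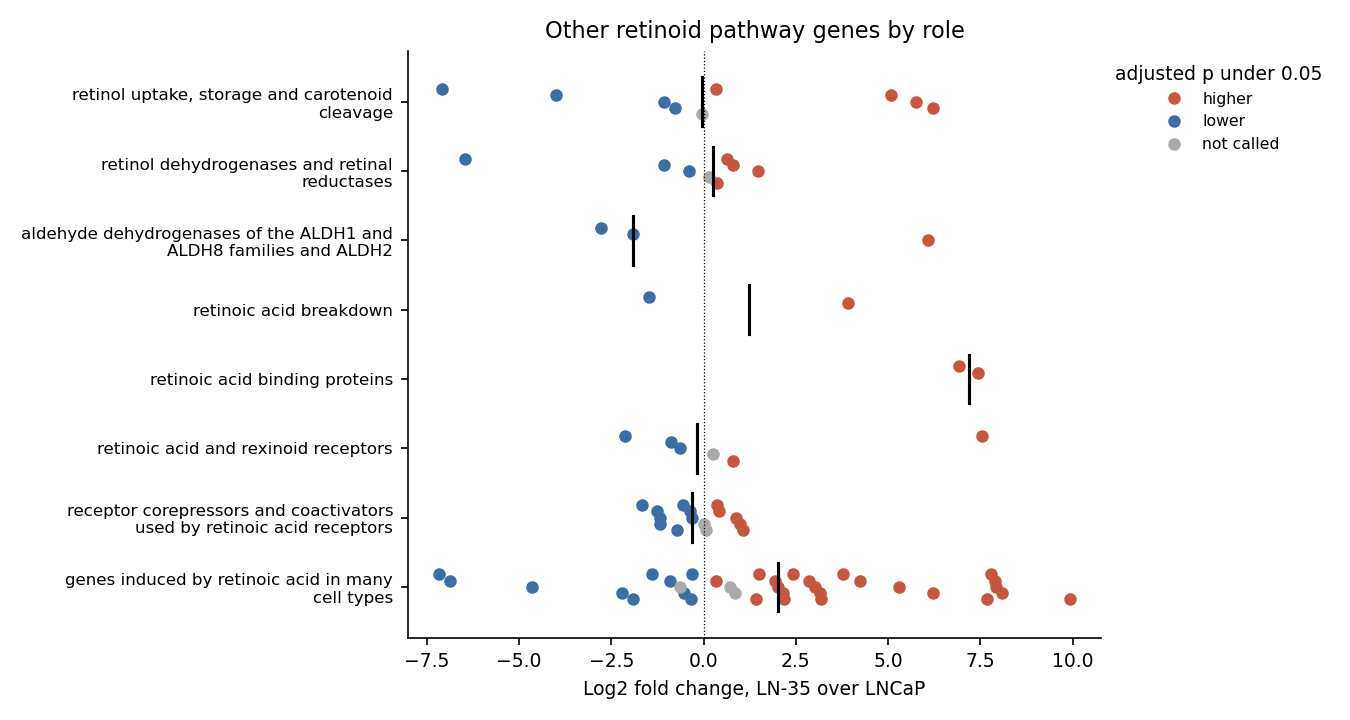
Log2 fold change, LN-35 over LNCaP, of each tested retinoid pathway gene outside the 10 members, grouped by role, with red for higher, blue for lower and grey for not called. Black bars are the medians of the groups. Genes induced by retinoic acid lie mostly to the right, with a median of 2.01, and the coregulators and receptors lie on both sides of 0.

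The receptors and carriers changed in composition. *RXRA*, which encodes a widely expressed RXR partner, fell from 104 ± 2.11 to 23.6 ± 0.525 CPM (log2 fold change -2.13, SE 0.09, edgeR adjusted p = 8.81e-16). *RXRB* was 1.72-fold higher at 46.4 ± 2.40 CPM, and *RXRG* had no counts in any library. *RARA* was 1.56-fold lower at 13.1 ± 0.839 CPM in LN-35. *RARG* stood at 26.8 and 32.1 CPM and was not called (log2 fold change 0.26, 95% interval 0.01 to 0.51, edgeR adjusted p = 0.0623). With single libraries left out, its log2 fold change ranged from 0.12 to 0.40. Among *RARA*, *RARB* and *RARG*, compared per kilobase of exon, *RARB* took 9.05% and 6.49% in the parent but 27.3% and 29.7% in the subline, while *RARA* went from 38.0% and 45.6% to 23.7% and 20.2%. The list of 7 receptors held 2 higher and 3 lower of 6 tested, beside 36.4% and 35.5% of all tested genes. *RORB*, an orphan receptor of the retina and brain, went from 2 and 0 counts to 166 and 181, a 211-fold ratio (counting interval 58.0 to 1749). *PPARD*, a receptor for fatty acids, was 1.84-fold lower.

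Both further carriers of retinoic acid were higher in LN-35. *CRABP1*, which is linked to breakdown of retinoic acid, had 0 and 0 counts in LNCaP, compared to 22 and 17 in LN-35, at least 15.8-fold higher. *FABP5*, which carries fatty acids and retinoic acid, had 1 and 0 counts in LNCaP, compared to 58 and 69 in LN-35, a 154-fold ratio (counting interval 27.2 to 6147). Beside *CRABP2* at 22.2 CPM, they remained minor transcripts at 1.60 ± 0.328 and 5.19 ± 0.510 CPM (edgeR adjusted p = 1.11e-05 and 7.33e-09).

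**Figure D4:**
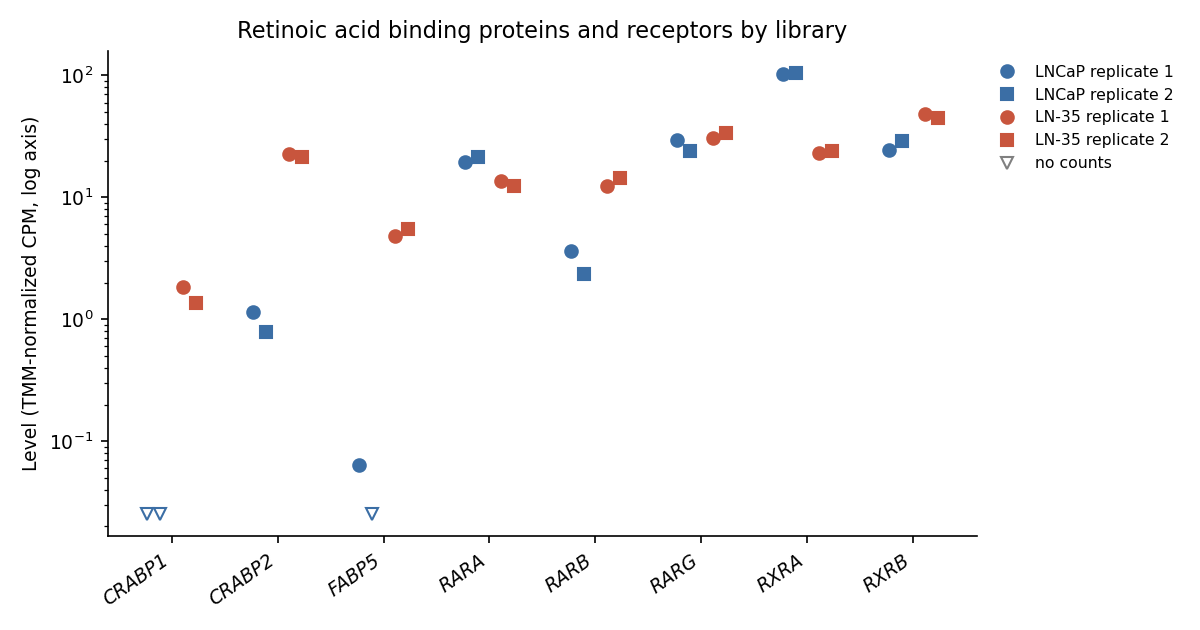
Level of retinoic acid binding proteins and of RAR and RXR receptor genes in every library, in TMM-normalized CPM on a log axis, with LNCaP in blue and LN-35 in red. Open triangles mark libraries without counts. *RXRA* drops from 102 and 105 CPM to 23.2 and 24.0 CPM, *RARB* and *CRABP2* rise, and *RARG* stays near 30 CPM.

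Genes that retinoic acid induces in many cell types changed in both directions. Of 52 listed genes outside the 10 members, 35 were tested, of which 22 were higher, 10 lower and 3 not called. Over all tested genes, 36.4% were higher and 35.5% lower. The median log2 fold change was 2.01, also with the 5 genes that lacked counts in 1 line set at their bound. A bound can move a median only by crossing it, so this says little about the median. *TGM2*, which encodes tissue transglutaminase, rose from 4 and 5 counts to 892 and 789 (68.9 CPM, 221-fold). *NR2F1*, a nuclear receptor gene of neural development, went from 1 and 0 counts to 556 and 458, a 1233-fold ratio (counting interval 221 to 48745). *ZBTB16*, a zinc finger repressor gene, was 4.50-fold higher. Of 11 HOX genes in the list, a subset singled out after their values were seen, 8 were tested and 7 of these were higher. Others went down, among them *TFAP2C*, an AP-2 factor gene (25.0-fold lower), *BHLHE40*, a clock-related repressor gene (4.65-fold lower), and *NR2F2*, the close relative of *NR2F1* (3.77-fold lower). The list is broad, and many of its genes answer to signals other than retinoic acid. It was chosen with earlier results of these data known. Genes nearly silent in 1 line, such as *NR2F1* in LNCaP, passed the filter only by their level in the other.

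Among 19 listed genes of retinol uptake and storage, 9 were tested, and 4 were higher and 4 lower. The shares over all tested genes were 36.4% and 35.5%. *LRAT*, which stores retinol as esters, had 1 and 0 counts in LNCaP, compared to 41 and 36 in LN-35, a 93.6-fold ratio (counting interval 16.3 to 3745). The lipase genes *LPL* and *LIPE* were also higher, at 9.68 and 2.57 CPM in LN-35. *RBP5*, a cellular retinol binding protein gene, went from 22 and 21 counts to 2 and 0, and *TTR*, which encodes the plasma carrier transthyretin, from 20 and 17 to 0 and 0. *PNPLA4*, a retinyl ester hydrolase gene, was 1.70-fold lower. *STRA6*, the retinol uptake receptor gene, had no counts in any library.

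Of 20 further dehydrogenase and reductase genes, 8 were tested, and 4 were higher and 3 lower, beside 36.4% and 35.5% of all tested genes. More were lower without the filter, and leaving out a library also loosens the filter. *RDH12*, a photoreceptor retinal reductase gene that neighbors *RDH11* on chromosome 14, went from 63 and 67 counts to 0 and 1, a 107-fold ratio (counting interval 18.9 to 4255). *DHRS7*, another member of this enzyme family, was 2.09-fold lower, and *RDH14* 1.30-fold lower, a call lost without LNCaP replicate 2 (log2 fold change -0.22, adjusted p = 0.164). Among the genes that rose, *AKR1C3* was 2.78-fold, *RDH13* 1.56-fold and *ADH5* 1.28-fold higher. Aldehyde dehydrogenases that are not main sources of retinoic acid split in the same comparison. *ALDH1B1* and *ALDH2*, which act in mitochondria, were 3.77-fold and 6.90-fold lower, and *ALDH1L2*, a mitochondrial folate enzyme gene, was 67.6-fold higher at 366 CPM. Among 8 further enzymes able to oxidize or conjugate retinoic acid, 2 were tested, with *CYP1A1*, a target of the aryl hydrocarbon receptor, 15.1-fold higher and *CYP3A5* 2.79-fold lower.

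Coregulators of retinoic acid receptors were mixed, with 5 of 15 tested higher, 8 lower and 2 not called (median log2 fold change -0.32). The shares over all tested genes were 36.4% higher and 35.5% lower. The corepressor complex gene *TBL1XR1* was 2.39-fold lower, and *PRAME*, an antigen gene whose product represses RAR signaling, was 3.16-fold lower. *TRIM24* and *GPS2* were 2.10-fold and 1.97-fold higher, and the chromatin gene *KMT2E* 1.83-fold higher. *NCOR1*, which encodes a nuclear receptor corepressor, was not called (log2 fold change 0.01, 95% interval -0.14 to 0.17, edgeR adjusted p = 0.878).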

How the data were processed

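RNA-seq of LNCaP (2 libraries) and LN-35 (2 libraries) was analysed, with groups taken from the library titles. The authors deposited 1 table of estimated counts per gene, not scaled between libraries, and the submitters' notes list hg38, with HISAT2 2.0.5 and featureCounts 1.5.0-p3 as tools. Between 11.5% and 12.0% of the values per library were not whole, by a step not given in the sources used here, and of the 40 values of the 10 retinoid genes 1 was not whole (*RDH11*, LNCaP replicate 2). Symbols were matched for 20304 of 20332 identifiers. Counts were rounded, filtered with filterByExpr (minimum count 10), TMM-scaled and tested two-sided with edgeR 4.0.16 (glmQLFit with robust=TRUE, R 4.3.3), with adjustment over 13744 genes. The study's methods state no test for RNA-seq. DESeq2 1.42.0 was an alternative, with others given at the end.

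Exon lengths and positions are from GENCODE release 29 (GRCh38, the assembly of hg38), and promoter windows from RefSeq on GRCh38.p14. Lengths joined all annotated exons of a gene, so levels per kilobase are understated where few isoforms are used. Fold changes are 2 to the fitted log2 value. Where a line had no counts, the fold is a lower bound against 3 counts over its libraries. Where it had 1 to 3 counts, the ratio has an exact 95% counting interval. No molecular identifiers were described, and all such intervals, limits and floors cover counting error only.

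The labels do not say whether replicates were separate cultures, so the p-values describe library-to-library spread, possibly technical. The labels mark repeat 1 and repeat 2 of each line with a batch tag, which may pair them. The repeat differences of the lines correlated at -0.02 over 13744 genes. Members and lists were chosen with earlier results of these data known. Named genes outside the members were up to 3 called genes per list and direction with the smallest adjusted p, and the receptors, except that some genes are not reported here. *STRA6*, *NCOR1* and the HOX subset were added after their values were seen.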

Additional observations from a re-analysis of the deposited data

How the results depend on the processing

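All 6 called retinoid genes kept their direction and their call with DESeq2 size factors, library totals alone, the DESeq2 test, no filter, counts rounded down and the replicate block. The replicate block changed none of these calls and gave 9617 called genes, 40 higher and 31 lower pathway genes, and log2 fold changes from -5.88 (*ALDH1A3*) to 4.50 (*CRABP2*). With single libraries left out, the same held except for *DHRS3*, which ranged from 0.52 (adjusted p = 0.0553, without LN-35 replicate 1) to 0.90, so that 5 or 6 of the genes were called. The number of called genes ranged from 8679 (DESeq2 test) to 9898 (DESeq2 size factors) where the filter and TMM or size factors were used, against 9873, and without a filter 5210 genes were higher and 5091 lower. With library totals alone the median of all genes shifted by -0.08, with 4589 higher and 5432 lower. *RARG* was called when DESeq2 size factors replaced TMM (edgeR adjusted p = 0.0467). Its log2 fold change ranged from 0.12 to 0.40 with single libraries left out. The *RDH14* call was also lost with the DESeq2 test (adjusted p = 0.0657). The lower dehydrogenase genes numbered 3, but 6 without a filter. Fits with a library left out also had a looser filter, so list counts from them do not show the part of that library alone. At this depth, *CYP26A1*, *ALDH1A2* and differences between libraries in *CYP26B1* could not be resolved.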
